A study of Homo sapiens with 5 samples.

Results

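The genes described here are 34 components of the PI3K, AKT and mTOR pathway, out of 15187 genes listed in both deposited tables. They were chosen by name from published knowledge of the pathway, with earlier results of these data known. All 34 were listed in both tables, and 33 passed the filter on low counts beside 13123 genes in all. DEPTOR was the member that did not pass. They were measured by RNA-seq in SAS cells, an established human line of squamous cell carcinoma of the tongue, carrying either a control short hairpin RNA (shCtrl) or one against CCT2 (shCCT2). CCT2 is a subunit of the cytosolic chaperonin CCT, which folds actin, tubulin and other proteins. Set A, the first deposited table, held shCtrl 1, shCCT2 1 and shCCT2 2, and set B, the second, held shCtrl 2 and shCCT2 3. The labels give neither the time after knockdown nor the number of hairpin sequences, and separate cultures are not stated, so p-values cover library-to-library spread only, possibly technical. In such bulk samples, fewer cells with a transcript and less of it per cell cannot be told apart.

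PI3K enzymes pair a catalytic with a regulatory subunit at the plasma membrane and make a lipid signal that recruits the kinases AKT and PDPK1. Lipid phosphatases remove that signal, and the PHLPP phosphatases take an activating phosphate off AKT. AKT in turn restrains GSK3 and the TSC complex, whose brake on the small GTPase RHEB otherwise keeps the kinase complex mTORC1 inactive. Amino acids act on mTORC1 by another route, in which Rag GTPases bring it to the lysosome, and mTORC1 then drives translation and holds back autophagy and the lysosomal transcription factor TFEB. The series title links CCT2 to this pathway, and the question here was whether the mRNAs of its components differed between shCCT2 and shCtrl cells. Phosphorylation, which sets the activity of these proteins, was not measured.

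The 5 libraries held between 16913585 and 18156592 counts, and levels below are CPM (counts relative to the library total, scaled by edgeR's TMM method). The targeted gene CCT2 stood at 629.7 and 641.9 CPM in shCtrl 1 and 2 and between 260.1 and 296 CPM in the 3 knockdown libraries (fitted log2 change -1.22 ± 0.18, SE; edgeR unadjusted p = 0.000434, adjusted p = 0.542; DESeq2 adjusted p = 3.81e-05). The value 0.542 was the lowest edgeR adjusted p of any gene tested. Genes of very different unadjusted p share it (0.128 for PIK3CA, edgeR), so it does not rank them. All 10 squamous epithelial markers searched exceeded 1 CPM in every library, but their summed level was 5562 CPM in shCtrl 1 and 1757 CPM in shCtrl 2, so the controls of the tables stood apart. Of the markers of other cell types, 2 of 7 fibroblast genes were listed in both tables, with sums of 3.004 to 11.76 CPM, as were 4 of 5 endothelial genes, with sums of 1.31 to 7.47 CPM and KDR at 0 in at least 1 library. The 4 of 6 leukocyte genes listed in both summed to 44.4 to 120.9 CPM, of which the lysosomal protein gene CD68 made at least 86.3%. The part of these markers in the results below was not tested.

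As a group the pathway genes showed small differences. Knockdown and control libraries were set against each other within tables in 1 model (edgeR's quasi-likelihood test, with the table as a term), which gives a fitted log2 change, knockdown minus control, with its standard error over 3 knockdown and 2 control libraries. Of the 33 members tested, 20 had fitted values above 0 and 13 below, with a median of 0.03, beside 48.5% of all genes tested with a higher value and a median of -0.02. The median size of the fitted change was 0.16 among members and 0.29 among all genes tested. These sets were not matched for level. A filter of at least 5 CPM in 2 libraries kept 32 of the 33 members and 10929 of the 13123 genes. With a threshold of 0.05 on the Benjamini-Hochberg adjusted p, no member passed, and neither did any gene tested (0% in each direction). On simulated counts this fit called 9.18% of genes changed 2-fold and 84.9% of those changed 4-fold. At 2-fold it made 8 false calls beside 18 true ones. The simulation held no difference between tables and gave every knockdown library the same change, so these shares may not hold for the real libraries. A member that did not pass may therefore still have changed. At an unadjusted p under 0.05, PHLPP2 and RPS6KB2 were higher and no member was lower, where 2.83% of all genes were higher and 4.57% lower (7.41% in all). This depended on the setting. Without scaling, 0 members were higher and 0 lower, beside 252 and 713 of all genes. Without the table term, 0 were higher and 1 lower, beside 29 and 189. DESeq2's Wald test had 2 higher and 1 lower (RRAGD, unadjusted p = 0.0129), beside 531 and 792. At an adjusted p under 0.05, DESeq2's Wald test called 0 members and 17 genes in all (0.13%). The fitted median of the members was 0.14 without shCtrl 1, which leaves the pair of set B alone to give the change, and -0.04 without scaling, where 13 of the 33 lay above 0.

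Agreement between libraries was near the background of all genes. Of the 33 members, 7 were higher in all 3 knockdown libraries than in the control of their table (21.2%, beside 20.2% of all genes tested) and 6 were lower in all 3 (beside 21.4% of all genes tested). shCCT2 1 and 2 share shCtrl 1, so these comparisons are not independent. The 7 were PHLPP2, AKT2, PDPK1, GSK3A, RPS6KB1, RPS6KB2 and EIF4EBP2, and the 6 were PIK3CA, PIK3CD, PHLPP1, RRAGA, RRAGC and RRAGD. In PHLPP2 and PDPK1 all 3 knockdown libraries lay above both controls, as in 7.98% of all genes tested. In PIK3CA and PHLPP1 all 3 lay below both controls, as in 8.25%.

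**Figure D1:**
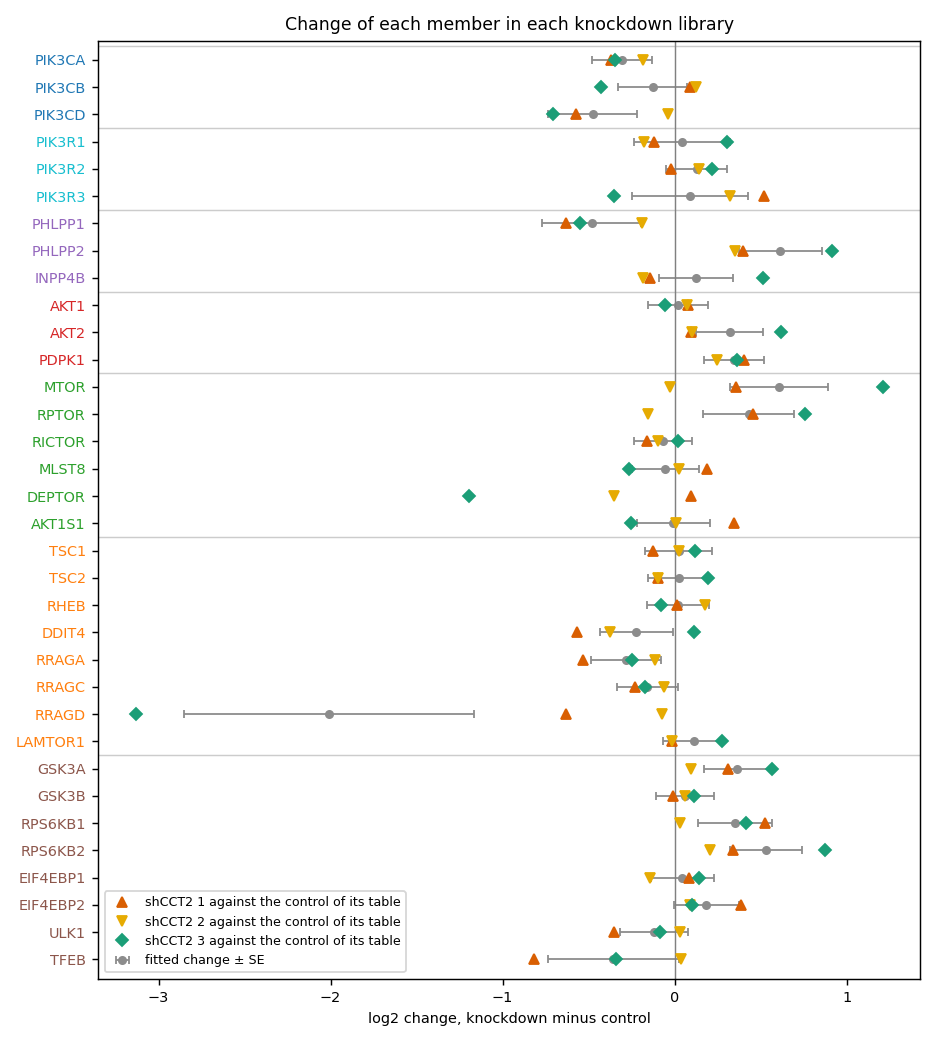
Log2 change of each member (rows, coloured by role) in shCCT2 1, 2 and 3 against the control of its own table, with the fitted change and its standard error in grey. Most fitted changes lie near 0, RRAGD reaches -3.13 in shCCT2 3, and DEPTOR, which did not pass the filter on low counts, has no fitted value.

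The 3 catalytic subunits of PI3K had lower fitted values, and none passed the test. PIK3CA, the widely expressed catalytic subunit p110-alpha, stood at 80.4 CPM in shCtrl 1, 62.3 in shCCT2 1 and 70.8 in shCCT2 2, and at 72.1 in shCtrl 2 and 56.5 in shCCT2 3. The knockdown libraries were the lower ones in both tables and did not overlap the controls, as in 8.25% of all genes tested. The nearest values were 70.8 CPM in shCCT2 2 and 72.1 in shCtrl 2. The fitted change of PIK3CA was -0.31 ± 0.18 (SE; edgeR adjusted p = 0.542). PIK3CA shares 37.1% of its exon bases with KCNMB3 on the opposite strand, and the strand setting of the counting is not known. PIK3CD, the subunit known from leukocytes, stood at 17.5 CPM in shCtrl 1, 11.6 in shCCT2 1 and 17.1 in shCCT2 2, and at 62.4 in shCtrl 2 and 38.1 in shCCT2 3. Both set B libraries exceeded all set A libraries, and its fitted change was -0.48 ± 0.26 (edgeR adjusted p = 0.542). PIK3CB, the other widely expressed catalytic subunit, lay between 86.5 and 94.4 CPM in set A, above shCtrl 2 (78.6 CPM) and shCCT2 3 (58.2 CPM). Its fitted change of -0.13 ± 0.20 became 0.11 with set A alone.

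Dividing CPM by the exon length of each gene (GENCODE 29) allows the subunits to be ranked against each other, with the limit that the isoforms in use are not known. PIK3CB led in every library, at 9.72 to 15.8 CPM per kilobase. In the set A libraries PIK3CA (6.78 to 8.76 CPM per kilobase) exceeded PIK3CD (2.05 to 3.09). In set B the order was the other way round, with PIK3CD at 10.99 CPM per kilobase in shCtrl 2 and 6.71 in shCCT2 3, against 7.85 and 6.16 for PIK3CA. The swap was present in the control as well as in the knockdown library of set B.

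The regulatory subunits, which stabilise the catalytic subunits and dock them on receptors, had fitted values near 0 (0.04 to 0.13). PIK3R2, at 11.7 to 21.4 CPM per kilobase, exceeded PIK3R1 (1.19 to 1.76) and PIK3R3 (1.15 to 2.04) in every library. PIK3R3 stood at 6.86 CPM in shCtrl 1, 10.1 in shCCT2 1 and 8.71 in shCCT2 2, and at 12.1 in shCtrl 2 and 9.39 in shCCT2 3. It was therefore higher with shCCT2 in set A and lower in set B, and the difference between the tables did not pass (interaction -0.82 ± 0.48, SE; edgeR adjusted p = 0.427). PIK3R1 had the opposite pattern, with 10.6 CPM in shCtrl 1 against 9.66 and 9.25 in shCCT2 1 and 2, and 10.97 in shCtrl 2 against 13.6 in shCCT2 3. Nearly the whole PIK3R2 model (97.1% of exon bases) is shared with an overlapping transcript annotated on the same strand, so its reads cannot be assigned to it alone. For PIK3R3, a coding gene on the same strand overlaps 21.7% of the exon bases.

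Of the phosphatases, the related genes PHLPP1 and PHLPP2, whose products act on AKT, differed in opposite directions in every knockdown library. PHLPP1 stood at 13.1 CPM in shCtrl 1, 8.30 in shCCT2 1 and 11.5 in shCCT2 2, and at 14.5 in shCtrl 2 and 9.71 in shCCT2 3. PHLPP2 stood at 21.9 CPM in shCtrl 1, 28.98 in shCCT2 1 and 27.99 in shCCT2 2, and at 12.9 in shCtrl 2 and 24.8 in shCCT2 3. For both genes the knockdown libraries did not overlap the controls, PHLPP1 being lower and PHLPP2 higher. Of all genes tested, 8.25% lay below both controls in this way and 7.98% above both. The fitted changes were -0.48 ± 0.29 for PHLPP1 (SE; edgeR adjusted p = 0.544) and 0.62 ± 0.24 for PHLPP2 (edgeR unadjusted p = 0.0406, adjusted p = 0.542). The PHLPP2 value was 0.38 with set A alone and 0.97 without shCtrl 1. INPP4B, which removes a phosphate from a product of PI3K, lay between 56.4 and 64.0 CPM in set A while shCtrl 2 had 53.5 and shCCT2 3 had 76.6 CPM, with a fitted change of 0.12 ± 0.21 that became -0.16 with set A alone.

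The sequences upstream of 4 members are shown: PHLPP1 and PHLPP2 as relatives that differed in opposite directions, RPS6KB2 as the other member at an unadjusted p under 0.05, and DDIT4 for its gap between the tables. RefSeq promoter windows on GRCh38.p14 were found for 28 of the 34 members, and each sequence is the 250 bases before the annotated start, 5′ to 3′ on the gene's strand: chr18:62715291-62715540 (plus strand) for PHLPP1, chr16:71724702-71724951 (minus strand) for PHLPP2, chr11:67428244-67428493 (plus strand) for RPS6KB2 and chr10:72273674-72273923 (plus strand) for DDIT4. Capitals mark motif matches on either strand. The core of the CLEAR element bound by TFEB was searched as CACGTG. The hypoxia response core was searched as ACGTG, which also lies within the CLEAR core. The FOXO site was searched as GTAAACA and the ATF4 composite site as TGATGNAAN. The core of the cyclic AMP response element was searched as TGACG, and the GC box as GGGCGG.
PHLPP1: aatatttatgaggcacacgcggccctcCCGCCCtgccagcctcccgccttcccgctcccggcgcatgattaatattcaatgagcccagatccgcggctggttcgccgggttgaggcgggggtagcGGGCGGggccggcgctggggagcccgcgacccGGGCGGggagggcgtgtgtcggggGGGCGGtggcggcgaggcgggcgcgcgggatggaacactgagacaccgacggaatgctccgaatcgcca
PHLPP2: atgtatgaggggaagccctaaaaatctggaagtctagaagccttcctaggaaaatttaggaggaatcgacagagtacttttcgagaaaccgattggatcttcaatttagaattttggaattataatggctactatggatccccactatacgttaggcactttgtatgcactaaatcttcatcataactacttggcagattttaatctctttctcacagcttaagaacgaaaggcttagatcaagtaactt
RPS6KB2: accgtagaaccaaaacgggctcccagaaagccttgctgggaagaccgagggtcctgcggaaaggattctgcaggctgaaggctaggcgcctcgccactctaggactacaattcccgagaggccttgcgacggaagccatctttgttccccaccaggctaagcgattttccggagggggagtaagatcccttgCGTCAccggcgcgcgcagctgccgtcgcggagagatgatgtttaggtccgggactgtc
DDIT4: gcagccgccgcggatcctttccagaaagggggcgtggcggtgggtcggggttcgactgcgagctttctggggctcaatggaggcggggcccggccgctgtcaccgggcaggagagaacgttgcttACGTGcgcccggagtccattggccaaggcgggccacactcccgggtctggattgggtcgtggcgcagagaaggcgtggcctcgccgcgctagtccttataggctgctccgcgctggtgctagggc
The PHLPP1 window held 4 GC boxes and a GC content of 71.2%, and the PHLPP2 window held none of the motifs and a GC content of 37.2%. The RPS6KB2 window held 1 TGACG match, which begins 58 bases before the start, and the DDIT4 window 1 ACGTG match, which begins 125 bases before it. Of the 27167 genes with a window, 46.1% had a GC box in at least 1 of their windows, 24.8% the cyclic AMP core, 21.7% the hypoxia core, 7.7% the CLEAR core, 3.88% the ATF4 site and 3.66% the FOXO site. Counted in the same way, among the 28 members with a window, 22 had a GC box, 11 the cyclic AMP core, 9 the hypoxia core, 4 the CLEAR core, 2 the ATF4 site and 1 the FOXO site. Of the 34943 single windows, 42.5% held a GC box, 21.2% the cyclic AMP core and 18.5% the hypoxia core. The 27167 genes were not limited to those tested here, so the members are set beside an unlike group. These are matches of letters and not binding sites.

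AKT1 was the steadiest of the AKT and PDPK1 group. It stood at 220.1 CPM in shCtrl 1, 232.8 in shCCT2 1 and 231.4 in shCCT2 2, and at 210.6 in shCtrl 2 and 202.7 in shCCT2 3 (fitted 0.02 ± 0.18, SE). Per kilobase of exon, AKT1 averaged 47.9 CPM over the 5 libraries and AKT2 averaged 12.4. AKT2, the isoform known for its role in the insulin response, stood at 76.0 CPM in shCtrl 1, 81.1 in shCCT2 1 and 81.4 in shCCT2 2, and at 48.6 in shCtrl 2 and 75.1 in shCCT2 3. Its low value was that of shCtrl 2, and the other 4 libraries lay within 75.1 to 81.4 CPM (fitted 0.32 ± 0.20; edgeR adjusted p = 0.548). PDPK1, the kinase that phosphorylates the activation loop of AKT, stood at 56.8 CPM in shCtrl 1, 75.2 in shCCT2 1 and 67.5 in shCCT2 2, and at 51.1 in shCtrl 2 and 65.8 in shCCT2 3. The knockdown libraries were higher in both tables by a like amount, by 0.40, 0.25 and 0.36 on the log2 scale (fitted change 0.34 ± 0.18, SE; edgeR adjusted p = 0.542). An antisense gene overlaps 23.4% of the PDPK1 exon bases, and a near-identical pseudogene is known, so its level is uncertain.

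**Figure D2:**
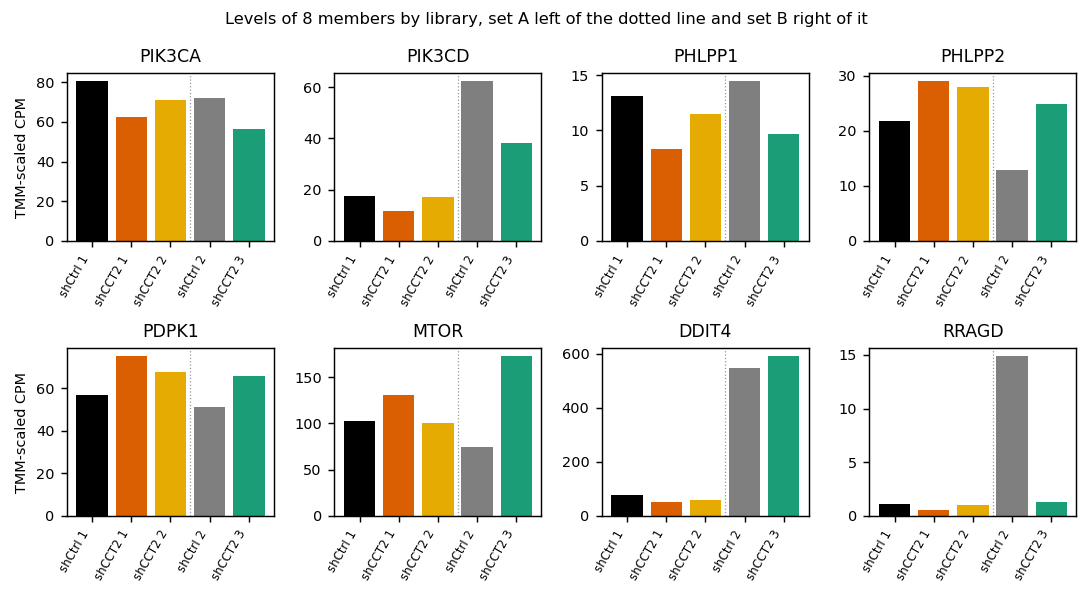
TMM-scaled CPM (bars, axis from 0) of PIK3CA, PIK3CD, PHLPP1, PHLPP2, PDPK1, MTOR, DDIT4 and RRAGD in each library, with set A left and set B right of the dotted line. PHLPP1 is lower and PHLPP2 and PDPK1 are higher with shCCT2 in both tables, while DDIT4 and PIK3CD separate the tables and RRAGD is high in shCtrl 2 alone.

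Among the mTOR complexes, the kinase MTOR and the mTORC1 scaffold RPTOR had the highest fitted values, and both rested largely on set B. MTOR stood at 102.3 CPM in shCtrl 1, 131.0 in shCCT2 1 and 100.3 in shCCT2 2, and at 74.2 in shCtrl 2 and 172.6 in shCCT2 3. shCCT2 2 was level with its control, and the fitted change of 0.61 ± 0.28 (SE; edgeR adjusted p = 0.542) was 0.18 with set A alone. The change in set B exceeded that in set A by 1.04 ± 0.35 (SE), which had an unadjusted p of 0.0263 and an adjusted p of 0.238 in edgeR's interaction test. RPTOR stood at 33.8 CPM in shCtrl 1, 46.5 in shCCT2 1 and 30.3 in shCCT2 2, and at 41.9 in shCtrl 2 and 71.2 in shCCT2 3, so that shCCT2 1 and 2 lay on either side of their control (fitted 0.43 ± 0.27; edgeR adjusted p = 0.548). MTOR had counts that were not whole numbers in every set B library and in shCCT2 1 and 2 (such as 2224.03 in shCCT2 1), so part of its count was an estimate. The same held for INPP4B in shCCT2 3 (1402.91) and MLST8 in shCtrl 2 (1400.96).

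RICTOR, MLST8 and AKT1S1 separated the tables. RICTOR, the scaffold of mTORC2, lay between 125.1 and 139.6 CPM in set A and at 82.0 and 83.0 CPM in shCtrl 2 and shCCT2 3. MLST8, a subunit of both complexes, lay between 37.8 and 43.1 CPM in set A and at 74.2 and 61.7 CPM in set B. AKT1S1, the mTORC1 inhibitor that AKT phosphorylates, had the same pattern, with 49.9 to 63.4 CPM in set A and 101.9 and 85.4 CPM in shCtrl 2 and shCCT2 3. Their fitted changes were -0.07, -0.06 and -0.01. DEPTOR, an inhibitor that binds mTOR, was near the detection limit, with 9, 10 and 5 counts in shCtrl 1, shCCT2 1 and shCCT2 2, and 31 and 8 counts in shCtrl 2 and shCCT2 3.

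In the TSC arm the core genes had fitted values near 0. TSC1 and TSC2, which together form the complex that holds RHEB inactive, and RHEB itself had fitted changes of 0.02 to 0.03, and without scaling each took the opposite sign (-0.04, -0.04 and -0.05). TSC1 lay between 32.2 and 38.3 CPM over all 5 libraries. TSC2 lay between 66.1 and 70.7 CPM in set A and at 39.9 and 45.7 CPM in shCtrl 2 and shCCT2 3, and RHEB between 155.1 and 175.2 CPM in set A and at 113.6 and 107.3 CPM in set B. For TSC2 and RHEB the tables did not overlap, whereas for TSC1 they did.

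DDIT4, a stress-induced inhibitor of mTORC1 that acts through the TSC complex, had the largest gap between tables of the members with over 50 CPM. It stood at 76.7 CPM in shCtrl 1, 51.6 in shCCT2 1 and 59.1 in shCCT2 2, and at 547.9 in shCtrl 2 and 591.9 in shCCT2 3. shCtrl 2 was 7.15-fold above shCtrl 1, and 2.71% of all genes tested had a larger log2 gap in that direction. Within set A both knockdown libraries were lower than the control, by -0.57 and -0.37 on the log2 scale, and in set B the knockdown library was higher by 0.11. The fitted change was -0.22 ± 0.21 (SE; edgeR adjusted p = 0.649), and the difference between tables did not pass (0.58 ± 0.31, edgeR adjusted p = 0.388). The annotated antisense gene DDIT4-AS1 overlaps 48.5% of the DDIT4 exon bases.

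The 3 Rag GTPase genes among the members relay amino acid supply to mTORC1. They were lower in all 3 knockdown libraries than in their controls, as were 21.4% of all genes tested. RRAGA stood at 83.6 CPM in shCtrl 1, 57.7 in shCCT2 1 and 77.3 in shCCT2 2, and at 42.7 in shCtrl 2 and 36.0 in shCCT2 3 (fitted -0.28 ± 0.20, SE; edgeR adjusted p = 0.571). RRAGC stood at 72.9 CPM in shCtrl 1, 62.0 in shCCT2 1 and 69.9 in shCCT2 2, and at 54.3 in shCtrl 2 and 48.1 in shCCT2 3 (fitted -0.16 ± 0.18; edgeR adjusted p = 0.696). Both fitted changes were smaller than the difference between shCCT2 1 and shCCT2 2, which was 0.42 for RRAGA and 0.17 for RRAGC on the log2 scale. An annotated transcript on the same strand overlaps 43.3% of the RRAGC exon bases, so its level is uncertain.

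RRAGD, which is itself a known target of TFEB, had the largest change of all members, and it came from 1 library. It had 19, 9 and 17 counts in shCtrl 1, shCCT2 1 and shCCT2 2 (1.10, 0.530 and 1.02 CPM), and 281 and 23 counts in shCtrl 2 and shCCT2 3 (14.9 and 1.26 CPM). shCtrl 2 was 13.6-fold above shCtrl 1 and 11.9-fold above shCCT2 3, and the other 4 libraries were all low. The fitted change of -2.01 ± 0.84 (SE; edgeR adjusted p = 0.542) was -0.50 without shCtrl 2. The interaction of table and hairpin was -3.06 ± 0.86, with an unadjusted p of 0.0124 and an adjusted p of 0.194 (edgeR). LAMTOR1, which anchors the Ragulator complex on the lysosome, stood at 106.6 to 107.6 CPM in set A, 62.1 CPM in shCtrl 2 and 75.4 CPM in shCCT2 3.

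Of the outputs, the S6 kinase genes, whose products mTORC1 activates to promote translation, were higher in all 3 knockdown libraries. The same held for 20.2% of all genes tested. RPS6KB2 stood at 69.6 CPM in shCtrl 1, 88.2 in shCCT2 1 and 80.4 in shCCT2 2, and at 35.3 in shCtrl 2 and 65.2 in shCCT2 3. The low value was that of shCtrl 2, and shCCT2 3 lay just under shCtrl 1, so the groups overlapped. The fitted change was 0.53 ± 0.21 (SE; edgeR unadjusted p = 0.043, adjusted p = 0.542) and 0.28 with set A alone. An antisense gene overlaps 27.1% of the RPS6KB2 exon bases. RPS6KB1 stood at 62.5 CPM in shCtrl 1, 90.2 in shCCT2 1 and 64.0 in shCCT2 2, and at 45.4 in shCtrl 2 and 60.7 in shCCT2 3, and shCCT2 2 was level with its control (fitted 0.35 ± 0.22; edgeR adjusted p = 0.548).

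The kinase gene GSK3A, whose product AKT inhibits, stood at 72.4 CPM in shCtrl 1, 90.0 in shCCT2 1 and 77.5 in shCCT2 2, and at 36.0 in shCtrl 2 and 53.5 in shCCT2 3 (fitted 0.36 ± 0.19, SE; edgeR adjusted p = 0.542). Its relative GSK3B stayed within 93.2 to 106.8 CPM over all 5 libraries (fitted 0.06 ± 0.17). EIF4EBP1 and EIF4EBP2 encode repressors of cap-dependent translation that mTORC1 switches off. EIF4EBP1 lay between 81.4 and 95.4 CPM in set A and at 168.0 and 185.4 CPM in shCtrl 2 and shCCT2 3, and EIF4EBP2 lay the other way, at 127.8 to 167.0 CPM in set A and 89.7 and 96.3 CPM in set B. Their fitted changes were 0.05 ± 0.18 and 0.18 ± 0.19. ULK1, the kinase that starts autophagy, stood at 47.4 to 62.1 CPM in set A and 83.5 and 78.8 CPM in shCtrl 2 and shCCT2 3 (fitted -0.12 ± 0.20). TFEB stood at 9.51 CPM in shCtrl 1, 5.18 in shCCT2 1 and 9.79 in shCCT2 2, and at 7.47 in shCtrl 2 and 5.78 in shCCT2 3. Its fitted change was -0.36 ± 0.38, and shCCT2 1 and 2 differed from each other by 0.86 on the log2 scale.

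**Figure D3:**
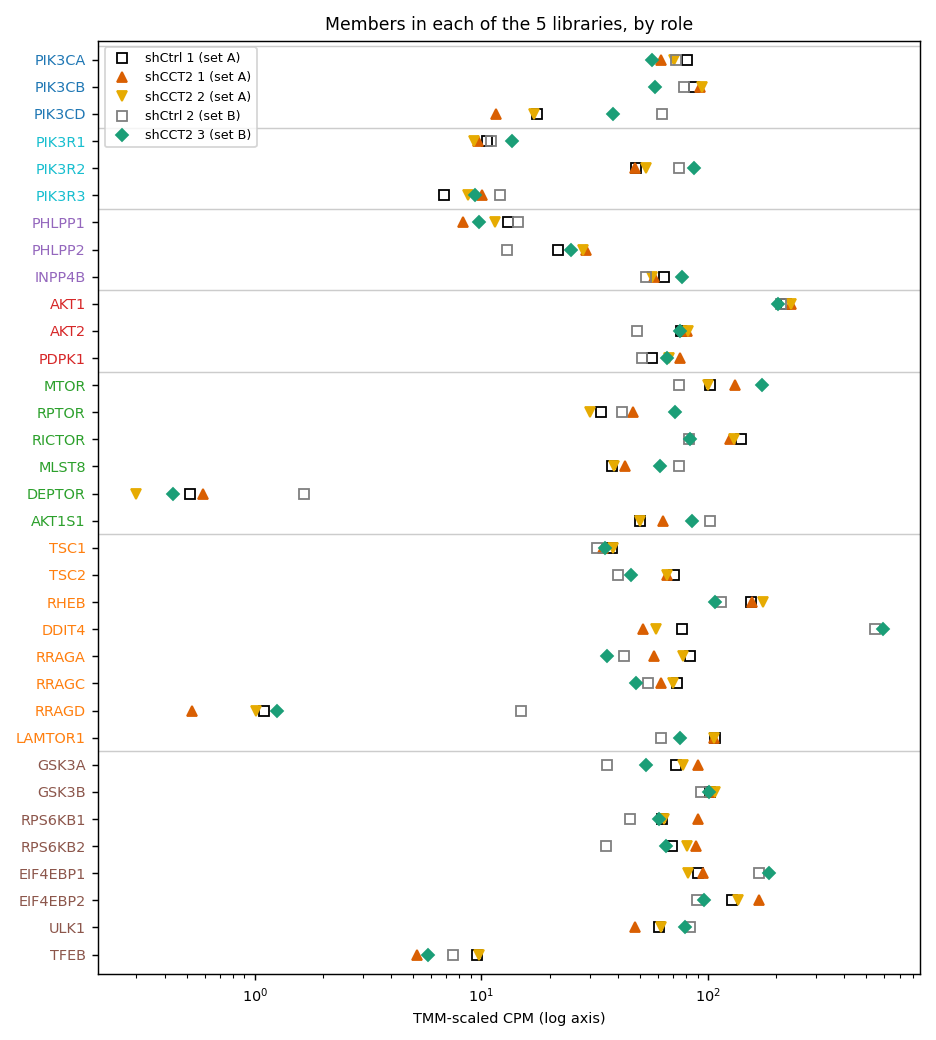
TMM-scaled CPM (log axis) of the 34 members in each library, with control libraries as open squares and knockdown libraries as filled symbols, names coloured by role. DDIT4, PIK3CD, EIF4EBP1, MLST8 and AKT1S1 are higher in both set B libraries than in all set A libraries, and RRAGD is high in shCtrl 2 alone. DEPTOR is low throughout, with its highest value in shCtrl 2 (1.64 CPM).

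For most members the gap between the controls was larger than the knockdown change. These are unlike measures. The gap sets single libraries of different tables against each other, while the fitted change is taken within tables over several libraries. The median size of the difference between shCtrl 2 and shCtrl 1 was 0.51 on the log2 scale among the 33 members tested (0.62 among all genes tested), against 0.16 for the fitted change and 0.17 for the difference between shCCT2 1 and 2. The controls were at least 2-fold apart in 4 members (PIK3CD, AKT1S1, DDIT4 and RRAGD), beside 29.7% of all genes tested, and GSK3A lay just short of it with shCtrl 1 2.01-fold above shCtrl 2 before the pseudocount. The fitted change exceeded the gap between controls in 6 members (PIK3CA, PHLPP1, PDPK1, MTOR, RPTOR and TFEB), beside 27.4% of all genes tested. The fitted change uses the same controls as the gap, so a member that is high in shCtrl 2 tends to have a lower fitted value by construction. The knockdown change differed between the tables at an unadjusted p under 0.05 in 2 members, MTOR and RRAGD, beside 17.2% of all genes tested, and at an adjusted p under 0.05 in 0 members and in 0% of all genes (edgeR). DESeq2's interaction test called 272 genes and 0 members.

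**Figure D4:**
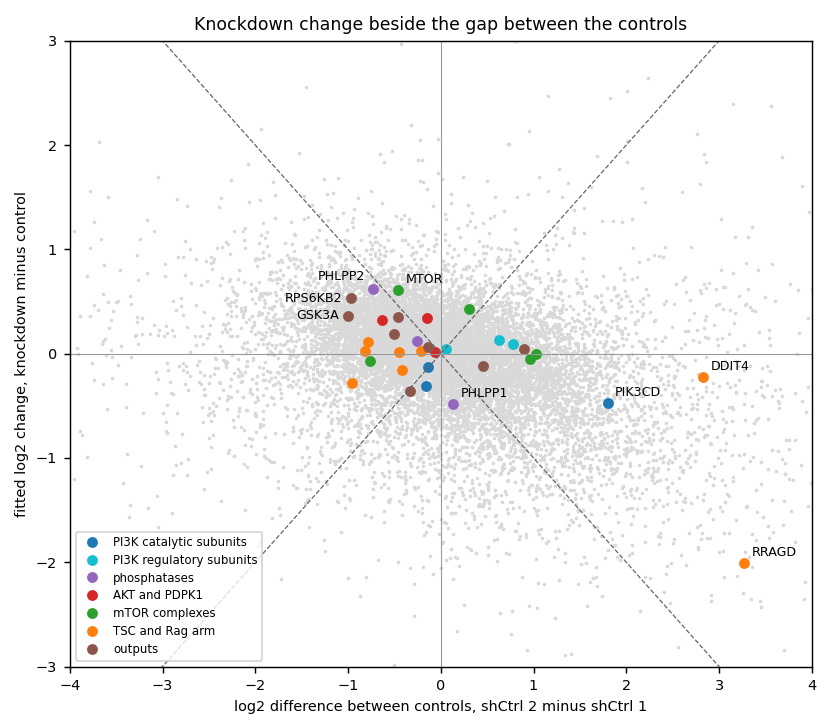
Fitted log2 change, knockdown minus control (y), against the log2 difference between the controls, shCtrl 2 minus shCtrl 1 (x), for the members by role and for all genes tested in grey, with 187 genes beyond the axes. The axes share the control libraries; members between the dashed lines to the left and right have a knockdown change smaller than the gap between controls (all but 6 of the 33).

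The other genes of the pathway were read from 7 lists holding 131 genes, of which 125 were tested. None passed (edgeR, adjusted p), 58 had fitted values above 0 and 67 below, and the median was -0.03. At an unadjusted p under 0.05, 12 were lower (9.6%, beside 4.57% of all genes tested) and 0 were higher (beside 2.83%). These 12 lay in 5 of the lists, and PIK3IP1, INPP5D, CASTOR1, EEF2, WIPI1, CTSB and PSAP, which are among them, had their highest value in shCtrl 2. By a separate count, all 3 knockdown libraries lay below both controls in 12 of the 125, beside 8.25% of all genes tested. They lay above both in 8, beside 7.98%. No test of a list was run, so these counts are a description. The genes named below were picked by the smallest unadjusted p of each list. In 23 of the 28 genes named below the fitted change moved by over 1.5 times, or took the other sign, without shCtrl 1 or without shCtrl 2, and the exceptions were PRR5, TBC1D7, ITFG2, MITF and RB1CC1.

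Among other PI3K and phosphoinositide genes 14 of 18 had fitted values below 0, beside 51.5% of all genes tested. This list had medians of 0.03 and 0.02 in the set A knockdown libraries and of -0.51 in that of set B. PIK3IP1, an inhibitor of PI3K that sits in the membrane, stood at 1.15 CPM in shCtrl 1, 0.412 in shCCT2 1 and 0.895 in shCCT2 2, and at 12.8 in shCtrl 2 and 1.58 in shCCT2 3. Like RRAGD it was high in shCtrl 2 alone (fitted -1.91 ± 0.70, SE; edgeR adjusted p = 0.542). INPP5D, a lipid phosphatase known from blood cells, stood at 3.06 CPM in shCtrl 1, 1.53 in shCCT2 1 and 2.27 in shCCT2 2, and at 7.10 in shCtrl 2 and 0.764 in shCCT2 3. All 3 knockdown libraries lay below both controls, as in 8.25% of all genes tested. PIK3C2A, a class II PI3K, had 109.6 to 133.3 CPM in set A, 129.6 in shCtrl 2 and 244.2 in shCCT2 3, and INPP5A, a phosphatase of soluble inositol phosphates, had 38.1 to 43.2 CPM in set A, 14.3 in shCtrl 2 and 48.1 in shCCT2 3.

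In the list of mTORC2, AKT and SGK kinases 6 of 13 were higher and 7 lower, with none at an unadjusted p under 0.05. PRR5, an mTORC2 subunit, was lower in all 3 knockdown libraries, at 23.2 CPM in shCtrl 1, 13.8 in shCCT2 1 and 15.9 in shCCT2 2, and at 8.90 in shCtrl 2 and 6.22 in shCCT2 3 (fitted -0.59 ± 0.25, SE; edgeR adjusted p = 0.542). PRKCA, a kinase that mTORC2 phosphorylates, separated the tables, with 10.9 to 12.2 CPM in set A, 102.6 CPM in shCtrl 2 and 34.9 CPM in shCCT2 3. THEM4, an AKT-binding protein, and TTI1, which helps assemble mTOR complexes, had fitted changes of 0.71 ± 0.32 and 0.44 ± 0.22.

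The inputs to mTORC1 from energy and stress had 10 higher and 8 lower fitted values of 18. SESN3, a stress-induced inhibitor of mTORC1, was low everywhere, at 2.31 and 2.28 CPM in shCtrl 1 and 2 against 0.648, 0.657 and 1.36 in shCCT2 1, 2 and 3. The knockdown libraries lay below both controls, as in 8.25% of all genes tested. The fitted change of SESN3 was -1.34 ± 0.50 (SE; edgeR adjusted p = 0.542). CAB39, a partner of the kinase that activates AMPK, stood at 228.9 to 256.3 CPM in set A and went from 145.2 CPM in shCtrl 2 to 379.9 in shCCT2 3. SESN1 and TBC1D7, a TSC complex subunit, had fitted changes of -0.43 ± 0.29 and -0.54 ± 0.39.

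In the amino acid arm (GATOR, KICSTOR, Ragulator and FLCN) 15 of 24 had fitted values above 0 and 9 below, and at an unadjusted p under 0.05 there were 3 lower (12.5%, beside 4.57% of all genes tested) and 0 higher (beside 2.83%). CASTOR2 and CASTOR1 are related genes, and CASTOR1 is the arginine sensor that acts on GATOR. CASTOR2 stood at 28.8 CPM in shCtrl 1, 13.6 in shCCT2 1 and 21.4 in shCCT2 2, and at 18.7 in shCtrl 2 and 3.11 in shCCT2 3 (fitted -1.51 ± 0.49, SE; edgeR adjusted p = 0.542). This was -0.72 without shCtrl 2 and -2.56 without shCtrl 1. CASTOR1 stood at 4.61 CPM in shCtrl 1, 2.12 in shCCT2 1 and 3.76 in shCCT2 2, and at 15.8 in shCtrl 2 and 1.09 in shCCT2 3. All 3 knockdown libraries lay below both controls, as in 8.25% of all genes tested. LAMTOR4, a Ragulator subunit, stood at 54.4 CPM in shCtrl 1, 41.8 in shCCT2 1 and 45.8 in shCCT2 2, and at 29.4 in shCtrl 2 and 14.1 in shCCT2 3 (fitted -0.63 ± 0.24). ITFG2, a KICSTOR subunit, was higher in all 3, with a fitted change of 0.58 ± 0.27.

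Of 12 translation outputs, 5 had fitted values above 0 and 7 below. PDCD4, an inhibitor of the helicase eIF4A whose decay S6 kinase promotes, stood at 110.3 CPM in shCtrl 1, 78.6 in shCCT2 1 and 98.4 in shCCT2 2, and at 96.8 in shCtrl 2 and 53.8 in shCCT2 3 (fitted -0.55 ± 0.22, SE; edgeR adjusted p = 0.542). EEF2, the elongation factor, was lower in all 3 and below both controls, at 2899 CPM in shCtrl 1, 2358 in shCCT2 1 and 2398 in shCCT2 2, and at 3863 in shCtrl 2 and 2073 in shCCT2 3. Of all genes tested, 8.25% lay below both controls in all 3 knockdown libraries. The initiation factor genes EIF4G1 and EIF4A1 were higher in all 3, as were 20.2% of all genes tested, with fitted changes of 0.55 ± 0.25 and 0.45 ± 0.23. In shCCT2 2 they were nearly level with the control (0.02 and 0.07 on the log2 scale). Without shCtrl 2 the fitted changes were 0.26 and 0.16. In the ULK complex and MiT factors 7 of 10 had a higher fitted value. BECN1, a part of the autophagy PI3K complex, lay above both controls in all 3 knockdown libraries (0.36 ± 0.18). The same held for 7.98% of all genes tested. ULK2, MITF and RB1CC1 had 0.89 ± 0.45, 0.42 ± 0.30 and -0.25 ± 0.18.

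Among the lysosomal targets of TFEB, 19 of 30 had fitted values below 0 and 11 above, with a median of -0.14, and 4 (13.3%) were lower at an unadjusted p under 0.05, beside 4.57% of all genes tested. WIPI1, an autophagy protein that binds phosphoinositides, stood at 7.26 CPM in shCtrl 1, 3.71 in shCCT2 1 and 4.83 in shCCT2 2, and at 46.5 in shCtrl 2 and 9.06 in shCCT2 3 (fitted -1.50 ± 0.43, SE; edgeR unadjusted p = 0.012, adjusted p = 0.542). Its change was -0.77 without shCtrl 2 and -2.33 without shCtrl 1. CTSB, a lysosomal protease, stood at 509.7 CPM in shCtrl 1, 253.5 in shCCT2 1 and 428.6 in shCCT2 2, and at 882.6 in shCtrl 2 and 325.4 in shCCT2 3. PSAP, the precursor of the saposins, stood at 1024 CPM in shCtrl 1, 671.9 in shCCT2 1 and 903.2 in shCCT2 2, and at 1354 in shCtrl 2 and 664.1 in shCCT2 3. In CTSB and PSAP the knockdown libraries lay below both controls, as in 4 of the 30 genes and 8.25% of all genes tested. Their fitted changes were -0.96 ± 0.32 and -0.66 ± 0.25, and GAA, the lysosomal alpha-glucosidase, had -0.51 ± 0.20. The medians of the list in shCCT2 1, 2 and 3 were -0.06, -0.05 and -0.23, and the controls differed too, with 20 of 30 genes higher in shCtrl 2 than in shCtrl 1.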

How the data were processed

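RNA of 5 SAS libraries was extracted with Trizol, selected with oligo(dT) beads before sequencing by MGI, per the labels' protocols. The authors deposited 2 tables of counts per gene, which are expected counts that need not be whole; 86.2% to 87.9% of the values per library were whole. STAR 1.5.1, HTSeq and, as genome build, mm10 (mouse) appear in the submitters' processing notes, without roles. The gene identifiers are plain numbers, of which 98.8% and 98.7% in the first and second table matched human RefSeq genes (GRCh38.p14), so the build used for the counts is unknown here. The authors also deposited a signal file per library of coverage along transcripts, of which the last 20% of windows held 13.8% to 16.7% of reads.

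Tables were joined on the gene identifier. The 763 and 1032 genes listed in 1 table alone were left out. Rounded expected counts were fitted with edgeR 4.0.16 (R 4.3.3): TMM, filter on low counts by group, quasi-likelihood test with table and hairpin as terms, Benjamini-Hochberg adjustment over all genes tested, threshold 0.05. The model had 2 residual degrees of freedom and the interaction of table and hairpin 1. The SE equals the absolute log2 change over the root of edgeR's F. Log2 changes of single libraries add 0.5 CPM. The lowest chi-square per degree of freedom between libraries was 19.4, so none was treated as a copy. The fit was tested on simulated counts.

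The members and lists were chosen with earlier results of these data known. The genes given with values are CCT2, all members, and up to 4 genes per further list by the smallest unadjusted p. Exon lengths and overlaps come from GENCODE 29 and may differ from the authors' models. Other settings tried were DESeq2 1.42.0 and its size factors, no scaling, no filter or one of 5 CPM, robust estimation, other pseudocounts, set A alone, libraries left out in turn, a fit with no term for the table, and the replicate number as block.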

Additional observations from a re-analysis of the deposited data

How the results depend on the processing

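No member passed the adjusted threshold under any of the alternatives run, and the lowest adjusted p of a member was 0.0783 (edgeR, without shCtrl 1, RRAGD). Of the 33 members tested, 14 kept the sign of their fitted log2 change in every alternative that tested them, among them PIK3CA, PIK3CD, PHLPP1, PHLPP2, AKT2, PDPK1, MTOR, RPS6KB1, RPS6KB2, GSK3A and RRAGD, and 19 took the other sign in at least 1; the causes were not tested. DESeq2 called 17 genes over all genes and 272 in the test of the difference between tables, a stricter filter called 15 in the latter, and leaving out libraries called 0 to 2 genes (2 without shCCT2 2). Where 1 library of a group or table was left, it was assumed to vary like the others, and the test of the difference between tables could not be run with shCCT2 1 or 2 left out. The median of the members was 0.025 to 0.14 (the latter without shCtrl 1) with a library left out and -0.037 without scaling, where that in shCCT2 3 was 0.00017. Values that took the other sign were as follows. With the stricter filter, AKT1 had -0.0086, TSC1 -0.0041, TSC2 -0.0010 and RHEB -0.0087, and with no filter AKT1S1 had 0.0020. Without scaling, PIK3R1 had -0.021, AKT1 -0.045, TSC1 -0.040, TSC2 -0.037, RHEB -0.045, GSK3B -0.0028 and EIF4EBP1 -0.019. Without the table term, PIK3R3 had -0.017, RICTOR 0.026 and EIF4EBP1 -0.096. With set A alone, PIK3CB had 0.11, PIK3R1 -0.16, INPP4B -0.16, MLST8 0.11, AKT1S1 0.19, TSC1 -0.048, TSC2 -0.095, LAMTOR1 -0.013, EIF4EBP1 -0.025 and CAB39 -0.070. With a library left out, the ranges were -0.026 to 0.077 for AKT1, -0.23 to 0.19 for AKT1S1, -0.072 to 1.42 for CAB39, -0.47 to 0.14 for DDIT4, -0.026 to 0.17 for EIF4EBP1, -0.16 to 0.55 for INPP4B, -0.014 to 0.31 for LAMTOR1, -0.24 to 0.11 for MLST8, -0.40 to 0.11 for PIK3CB, -0.16 to 0.34 for PIK3R1, -0.34 to 0.45 for PIK3R3, -0.052 to 0.096 for RHEB, -0.13 to 0.047 for RICTOR, -0.049 to 0.15 for TSC1 and -0.097 to 0.22 for TSC2.

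The replicate numbers of the labels do not pair the samples: shCtrl and shCCT2 share the numbers 1 and 2, but number 2 joins libraries of different tables, and the deviations of shCtrl 2 and shCCT2 2 from their group means correlated at -0.61 over 10723 genes. The deviations of shCtrl 1 and shCCT2 1, which share a table, correlated at 0.70. With 2 controls, the deviation of shCtrl 1 is that of shCtrl 2 with the sign reversed, so these correlations are not independent. With the replicate number as a block, 0 genes passed, and values of the other sign were 0.18 for PIK3CB, -0.19 for PIK3R1, -0.26 for PIK3R2, -0.033 for INPP4B, -0.0041 for RPTOR, 0.25 for RICTOR, 0.16 for RRAGA, 0.065 for RRAGC, -0.48 for EIF4EBP1, 0.13 for LAMTOR4, 0.040 for PRR5, 0.26 for SESN1, -0.30 for MITF and 0.037 for RB1CC1. RRAGD had at most 23 counts in each library but shCtrl 2 (281), and DEPTOR had at most 31 in every library, which limits their precision.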
